A study of Danio rerio with 2 samples.

Results

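A small population of cranial neural crest cells (NCCs) of the zebrafish head carried transcripts of some or all of *gata3*, *sost*, *isl2a* and *sema3fb*. Its members were chosen from single-cell RNA-sequencing (scRNA-seq) counts by 1 rule. Cells needed at least 3 unique molecular identifiers (UMIs, each standing for 1 captured transcript) summed over these 4 genes. They were allowed no more than 1 UMI of *hand2*, no more than 1 of *pou3f3a* and *pou3f3b* together, and no more than 1 of *hoxb5a* and *hoxb5b* together. The rule was applied to barcodes with at least 1800 UMIs, under 5% mitochondrial UMIs and no more than 3000 genes in DMSO or 3500 genes in YM, called kept cells here. It found 293 of 7931 kept cells, 126 of 3555 in DMSO and 167 of 4376 in YM.

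The study compared embryos exposed from 16 to 36 hours post-fertilization (hpf) to the solvent DMSO or to 100 µM YM-254890 (YM). The label of the control sample gives DMSO at 10%, whereas the methods of the study state a much lower upper limit. YM-254890 inhibits the Gq/11 family of G protein alpha subunits, which relay signals from receptors such as the Endothelin receptor. All embryos carried Tg(sox10:mRFP), which drives a membrane red protein in crest and in other *sox10*-expressing cells, and Tg(fli1a:EGFP), which drives a green protein in crest mesenchyme and also in vessels and some blood cells. Heads of 36 hpf embryos (70 treated embryos per condition, 10 of them set aside) were pooled, 72000 double-positive cells from DMSO and 86000 from YM were sorted, and 8000 per condition were submitted for 1 library each. With 1 library per condition no test could be made, and every interval below is an exact 95% interval that covers counting error only.

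As background, crest mesenchyme of the frontonasal region and first arch carries no Hox genes, whereas crest of the more posterior arches does. Within the arches, *dlx* genes, *hand2*, *barx1* and *lhx* genes mark positions along the dorsal to ventral and oral to aboral axes. *gata3* encodes a zinc finger transcription factor that acts downstream of BMP in zebrafish crest of the upper face. *sost* encodes sclerostin, a secreted antagonist of Wnt and BMP signals. *isl2a* encodes a LIM-homeodomain factor best known from neurons, *sema3fb* a secreted guidance cue of the semaphorin family, and *tbx18* a T-box factor of head mesenchyme and of mural cells, the cells that wrap vessels.

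The libraries held 25340682 (DMSO) and 33649382 (YM) UMIs over 25434 features, of which kept cells carried 22094925 and 30362029. Kept cells had a median of 5893 UMIs in DMSO and 6565 in YM, and members had 5074 and 5599. The libraries shared 5 kept barcodes, 1 of them from a DMSO member. Free RNA was estimated at 0.587% of member UMIs in DMSO and 0.602% in YM, from hemoglobin and other erythroid genes. These estimates are rough, since they rest on just 6 and 10 erythroid UMIs in members.

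Members made up 3.54% of kept cells in DMSO (2.96 to 4.21) and 3.82% in YM (3.27 to 4.43), so the intervals overlapped. After every cell was thinned to 3500 UMIs before the rule was applied, the shares were 2.49% (80 of 3218 cells) and 2.32% (94 of 4057), with 337 and 319 shallower cells left out. Their intervals were 1.98 to 3.08 and 1.88 to 2.83, so they overlapped as well. The order of the libraries turned after thinning, but neither order lay beyond counting error. Before the exclusions 132 and 174 cells reached 3 UMIs. *hand2* removed 4 and 5 of them, the *pou3f3* genes 1 and 2, and the *hoxb5* genes 1 and 0. Few cells with 3 UMIs of the 4 genes thus had more than 1 UMI of these arch markers. For *hand2* this was 3.03% (0.83 to 7.58) in DMSO and 2.87% (0.94 to 6.58) in YM. Of all kept cells, 12.5% and 9.30% met the *hand2* rule of the comparison cells below. The intervals for the *pou3f3* genes also lay below the shares of kept cells that met their rule. For the *hoxb5* genes, 1.58% and 1.37% of kept cells met the rule. The intervals (0.02 to 4.15 and 0 to 2.10) held these shares, so no depletion can be read for *hoxb5*. The rules of the comparison cells set minima of their own, so the shares set side by side here may differ in cut-off.

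The genes that define the rule are given as a description, since they chose the cells. *gata3* reached 298 UMIs per 1000000 UMIs (CPM) in DMSO members (258 to 341) and 294 in YM members (261 to 330), and 70.6% and 71.9% of members had a UMI of it. *sost* was the most abundant of the 4, at 437 CPM (389 to 490) and 440 CPM (400 to 484), but was present in 42.9% and 50.9% of members. It reached 29 and 31 UMIs in single cells, against 6 and 7 for *gata3*. *isl2a* was at 142 CPM (116 to 173) in DMSO and 88.5 CPM (70.9 to 109) in YM, in 46.8% and 34.1% of members. *sema3fb* was at 161 and 151 CPM, in 42.1% and 45.5% of members. In the other kept cells these genes were between 2.52 and 7.94 CPM. In leukocytes, which should lack them and were deeper, a UMI of each gene was found in 0 to 1 of 61 cells in DMSO and 0 to 1 of 47 cells in YM. Members held 54.7% (DMSO) and 56.4% (YM) of all *gata3* UMIs of kept cells, and 74.0% and 81.4% of those of *sost*.

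The number of these genes with a UMI in a member is limited by the rule and by depth, since 3 UMIs cannot show 4 genes. In DMSO 33 members had a UMI of 1 of them, 62 had 2, 26 had 3 and 5 had all 4. In YM the numbers were 47, 75, 39 and 6. The sum over the 4 genes had a median of 4 UMIs in both libraries and reached 30 in DMSO and 33 in YM. *gata3* led in 36 DMSO and 54 YM members, *sost* in 35 and 61, *sema3fb* in 20 and 23, and *isl2a* in 15 and 8, with ties in 20 and 21.

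Each gene was also measured in cells chosen by 3 UMIs of the other 3, with the same exclusions. *gata3* was then 183 CPM in 74 DMSO cells against 13.8 in the remaining kept cells, a log2 ratio of 3.73 (3.34 to 4.10), and 168 against 14.1 CPM in 99 YM cells (3.58, 3.24 to 3.90). *sost* had ratios of 3.97 (3.65 to 4.29) and 3.58 (3.27 to 3.88). *isl2a* had 3.59 (3.03 to 4.12) and 3.95 (3.44 to 4.44), and *sema3fb* 3.76 (3.25 to 4.24) and 3.79 (3.38 to 4.18). The 4 genes were picked together with results of these data known, so these ratios are a description and no independent evidence that the genes mark the same cells.

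Of the label markers, only *tbx18* was not used by the rule. It was still picked with results of these data known, so its ratios are a description and no independent evidence. It summed to 77 UMIs in DMSO members (112 CPM, 88.3 to 140) and 81 in YM members (82.4 CPM, 65.4 to 102), against 5.37 and 4.73 CPM in the other kept cells. The log2 ratios were 4.38 (3.94 to 4.81) and 4.12 (3.71 to 4.53). A UMI of *tbx18* was found in 19.0% and 21.6% of members, and after thinning to 3500 UMIs in 12.7% (14 of 110) and 15.0% (22 of 147). Leukocytes had 0 UMIs of *tbx18*. A cell with 0 UMIs at this depth may still express the gene. The log2 ratio of *tbx18* to the other kept cells was 1.63 in DMSO and 2.61 in YM in cells chosen without *sost*.

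**Figure D1:**
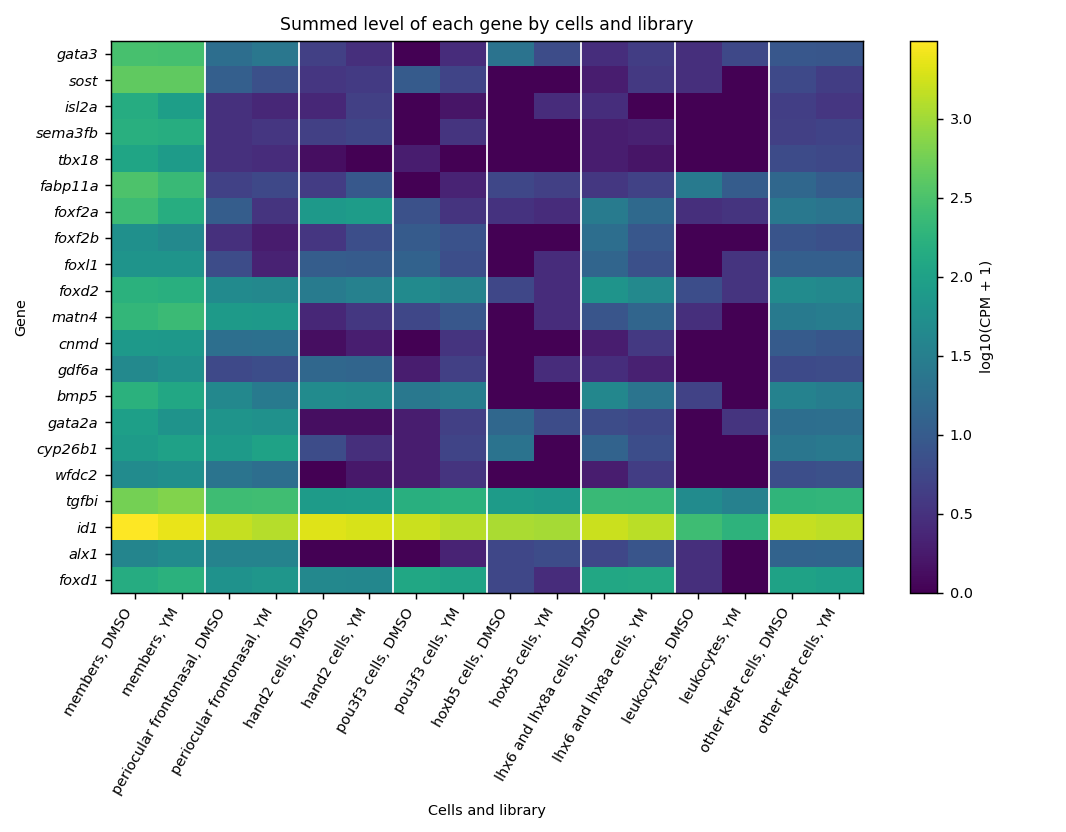
Level of 21 genes (rows) as log10(CPM + 1) of summed UMIs, in members and in comparison cells of each library (columns). The 4 genes of the rule and *tbx18*, *fabp11a* and *foxf2b* are brightest in the 2 columns of members, whereas *gata2a* and *cyp26b1* are bright in members and in periocular frontonasal cells.

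Each gene was next compared between members and the other kept cells of the same library, without the genes of the rule. A gene counted as higher or lower where it differed at least 2-fold in the same direction in both libraries, with a gene at 0 UMIs in members set to 3 counts. Of 10084 genes with at least 100 UMIs over all kept cells, 249 (2.47%) were higher and 258 (2.56%) were lower in members. The median log2 ratio of all genes was 0.09 in DMSO and 0.05 in YM. Genes that share expression with the 4 genes of the rule are favoured by the choice of cells, so these ratios describe the members and were not tested.

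The gene with the highest ratio in both libraries was *fabp11a*, which encodes a fatty acid binding protein. It had 223 UMIs in DMSO members (324 CPM against 13.6 in the others, log2 ratio 4.57, 4.31 to 4.83) and 230 in YM members (234 against 9.36 CPM, 4.64, 4.38 to 4.90). A UMI of it was present in 29.4% and 23.4% of members, 2.80% and 2.47% of other kept cells, and 18.0% and 8.51% of leukocytes. After *tbx18* came *cyp2k16*, a cytochrome P450 gene (4.22 and 3.79), and *itga11a*, a collagen-binding integrin subunit (3.54 and 4.12). *cnmd* and *matn4*, which encode the matrix proteins chondromodulin and a matrilin, had ratios of 3.09 and 3.26 and of 2.97 and 3.06. *matn4* was at 203 CPM in DMSO members and 241 in YM members against 26.0 and 28.9 CPM in the others, with a UMI in 48.4% and 56.3% of members. Also among the 15 leading genes were *gdf6a*, *zgc:195173*, *wfdc2*, *tox2*, *cpn1.1*, *si:dkey-238o13.4* and the forkhead genes described next.

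Forkhead genes of oral and facial mesenchyme were high as a group. Of 10 such genes with enough UMIs, 6 were higher in members in both libraries and 0 were lower, with medians of 1.30 in DMSO and 1.35 in YM. *foxf2a* was at 247 CPM (211 to 287) in DMSO members and 147 CPM (124 to 174) in YM members, against 24.1 and 21.2 CPM, with log2 ratios of 3.36 (3.098 to 3.61) and 2.80 (2.53 to 3.06). It was detected in 51.6% and 43.1% of members. *foxf2b* followed at 2.98 and 2.82, *foxl1* at 2.61 and 2.64, *foxd2* at 1.85 and 1.91, *foxf1* at 1.47 and 1.37 and *foxp4* at 1.13 and 1.32. In mouse, *Foxf* and *Foxl1* genes are known targets of hedgehog signals in mesenchyme. Of 12 hedgehog pathway genes here, 3 were higher and 0 lower. These were the receptors and feedback genes *ptch1* (1.72 and 1.43) and *hhip* (1.85 and 1.47) and the transcription factor *gli1* (1.07 and 1.03). *ptch1* rested on 18 and 20 UMIs, at 26.2 and 20.3 CPM in members. The hedgehog list was not particular to members. It summed to 689 and 677 CPM in them but to 1085 and 1030 CPM in the periocular frontonasal cells described below.

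Members also carried more transcript of BMP ligands. Of 6 ligand genes, 4 were higher and 0 lower. *gdf6a* was at 43.6 and 55.9 CPM in members against 5.00 and 5.41 in the others (log2 ratios 3.12 and 3.37). *bmp5* was at 171 and 125 CPM against 34.1 and 29.2 (2.33 and 2.10). *bmp2b* had ratios of 1.81 and 2.14, and *bmp7b*, with only 10 and 5 UMIs in members, 2.79 and 1.29. Among 14 receptors and antagonists, the pseudoreceptor genes *bambia* (2.05 and 1.53) and *bambib* (1.499 and 1.38) were higher, and the antagonists *grem2b* (−1.91 and −2.32) and *fsta* (−3.69 and −2.65) were lower. Of 16 genes known as BMP targets, 5 were higher and 0 lower, namely *id3*, *smad6a*, *smad7*, *tbx3a* and *gata2a*. *tbx3a* had just 3 and 4 UMIs in members, whereas *gata2a*, a paralog of *gata3*, was at 93.0 and 61.0 CPM against 17.5 and 17.8 (2.41 and 1.78). *id1*, a target that BMP induces directly in many tissues, reached 3112 CPM in DMSO members and 2387 in YM members, against 1538 and 1387 CPM. Its ratios of 1.02 (0.95 to 1.08) and 0.78 (0.72 to 0.84) were under 2-fold in YM.

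Matrix genes were mixed. Of 33 tested, 6 were higher (*matn4*, *thbs1b*, *tgfbi*, *col9a1a*, *postnb* and *dcn*) and 2 were lower (*col6a1*, −2.95 and −2.13, and *col6a2*, −1.80 and −2.69). *thbs1b*, a thrombospondin gene, was at 167 and 175 CPM against 42.9 and 39.7 (1.96 and 2.14). *tgfbi*, which encodes a matrix adhesion protein, was at 574 and 667 CPM against 191 and 198 (1.59 and 1.75). Of 8 cartilage genes, *matn4*, *cnmd* and *col9a1a* were higher, and *barx1*, a homeobox gene of arch mesenchyme, was lower (−5.11 and −3.03). Of 14 retinoic acid genes, *cyp26b1*, which degrades retinoic acid, was higher (1.89 and 1.99), whereas *cyp26a1* (−1.69 and −1.30) and *dhrs3b* (−1.84 and −1.39) were lower. Higher genes of other lists were *fgfr2*, *fgfrl1a* and *etv4* of the Fgf pathway, *fzd8a*, *ror2* and *sfrp1a* among Wnt receptors and antagonists, *nrp2b* and *plxnb2a* among semaphorin receptors, and the chemokines *cxcl12a* (1.29 and 1.42) and *cxcl14*. *nrp2b*, a neuropilin gene, was at 122 and 137 CPM against 31.2 and 30.6 (1.97 and 2.17).

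**Figure D2:**
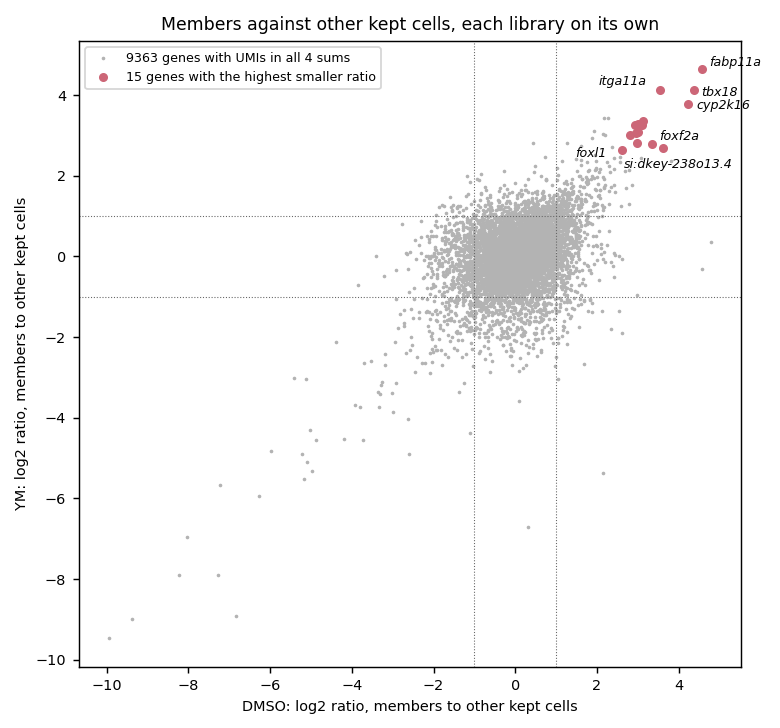
Log2 ratio of members to other kept cells in DMSO (x axis) and in YM (y axis), 1 point for each of 9363 genes with UMIs in every sum, with dotted lines at 2-fold. The 15 leading genes (red) sit at the upper right, up to *fabp11a* at 4.57 and 4.64, and 721 genes with a sum of 0 are not drawn.

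The position markers of the arches were low. All 8 Hox genes tested were lower, and *hoxa2b*, which is expressed in the second arch, had 1 UMI in DMSO members and 8 in YM members (−5.41 and −3.02). Of 20 dorsal and ventral arch genes, 11 were lower and 0 higher, among them *dlx5a* (−2.91 and −3.14), *dlx6a* (−2.60 and −4.90), *lhx6* (−3.20 and −2.70), *lhx8a* (−2.20 and −2.65) and the Endothelin receptor gene *ednrab* (−3.27 and −3.12). *dlx2a* was at 11.6 and 10.17 CPM in members against 162 and 135 CPM (−3.80 and −3.73). The exclusions of the rule act on *hand2*, *pou3f3* and *hoxb5* genes, and the arch genes rested in part on them. Without the exclusions, the ratios were −2.98 and −2.41 for *dlx2a* and −3.39 and −1.99 for *barx1*. Of 14 frontonasal and periocular genes, *alx1* (1.64 and 1.93) and *alx4a* (1.61 and 1.41) were higher and 0 were lower. Both encode homeodomain factors of frontonasal crest. *six2a*, a homeobox gene of head mesenchyme, was also higher (1.98 and 1.65).

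General crest mesenchyme genes differed within pairs of paralogs. *prrx1a* was at 232 and 233 CPM in members against 103 and 110 (1.18 and 1.08), whereas *prrx1b* was at 65.4 and 79.3 CPM against 196 and 202 (−1.58 and −1.35). Without the exclusions of the rule *prrx1b* in YM was at −0.96, under 2-fold. *snai2* was higher (1.38 and 1.05) and *twist1a* was near the other cells at 289 and 300 CPM (−0.45 and −0.49). EGFP transcripts reached 10166 CPM in DMSO members and 8779 in YM members, against 7761 and 6951 CPM in the other kept cells. mRFP transcripts were at 1.45 and 4.07 CPM in members, so the red label by which the cells were sorted could hardly be seen in the counts.

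Markers of other cell types were checked by list. Leukocyte genes summed to 7.26 and 7.12 CPM in members, with 8 of 10 genes at 0 in each library, against 68467 and 53227 CPM in leukocytes. Erythroid genes summed to 8.72 and 10.17 CPM with 5 of 9 at 0, and pigment genes to 1.45 and 2.03 CPM with 9 of 10 at 0. Endothelial genes summed to 8.72 and 14.2 CPM with 9 and 8 of 12 at 0. They were also low in the other kept cells, at 13.2 and 17.4 CPM. The 10 genes that were lowest in members were all at 0 UMIs there. They were *hbae1.3*, *mpx*, *MFAP4.3*, *si:ch1073-429i10.1*, *hoxa4a*, *myhz2*, *tpma*, *myl1*, *lect2l* and *si:dkey-5n18.1*. With 3 counts in place of 0, the log2 ratio of the hemoglobin gene *hbae1.3* was −5.25 or lower in DMSO and −6.37 or lower in YM, and that of the neutrophil gene *mpx* was −4.72 and −4.18 or lower. The muscle genes *myhz2*, *tpma* and *myl1* had only 1, 10 and 5 UMIs in the other DMSO cells, which gives no ratio there. Of 9 mural cell genes tested, *tbx18*, *foxf2a*, *foxf2b* and *pdgfrb* (1.03 and 1.54) were higher, but the mural genes *rgs5a*, *abcc9*, *kcnj8* and *acta2* had 0 or 1 UMI in members. Neuronal genes summed to 167 and 156 CPM in members against 125 and 99.8 CPM in the other kept cells, with 13 and 10 of 16 at 0 UMIs in members. The tubulin gene *tubb5* gave 111 of these UMIs in DMSO and 140 in YM. *elavl3* had 0 UMIs in DMSO members and 4 in YM members, and *elavl4* and *neurod1* had 0 and 1. Of the other *gata* and islet genes, *isl1* and *isl2b* had 0 UMIs and *gata6* had 0 and 1.

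Epidermal genes differed between the libraries, at 574 CPM in DMSO members and 237 in YM members. One DMSO member with 17979 UMIs and 2993 genes held 31 of 31 *epcam*, 83 of 86 *krt4* and 71 of 72 *cldni* UMIs of all DMSO members. It met the rule through 3 UMIs of *isl2a* and 1 of *sema3fb*, without *gata3* or *sost*. One YM member had 4 UMIs of leukocyte marker genes. Without this pair of cells, which left 125 and 166 members, epidermal genes were at 194 and 239 CPM. Results that rest on the DMSO cell are given with and without it below.

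A list of 30 companion genes, which comes from a cluster of these same cells and so is no independent evidence, held 28 genes that were higher in members in both libraries and 0 that were lower. Their median log2 ratios were 2.01 and 2.09. The exceptions were *id1* and the chemokine gene *cxcl12b* (1.39 and 0.77). Summed, the companion genes stood at 9359 CPM in DMSO members and 8593 in YM members, against 3364 and 3263 in the other kept cells.

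The rule's minimum lay on a slope, not at a gap. Companion genes summed to 3281 CPM in DMSO and 3227 in YM in cells with 0 UMIs of the rule's genes, and to 5854 and 5460 in cells with 1. They were at 8049 CPM (7758 to 8348) and 6213 CPM (6006 to 6425) in the 76 DMSO and 88 YM cells with 2 UMIs, just outside the rule. In the 39 and 50 cells with 3 UMIs, just inside, they were at 8823 CPM (8420 to 9241) and 7453 CPM (7138 to 7778). In the 25 and 41 cells with 7 or more they were at 10705 and 9614. *foxf2a* was at 131 and 69.3 CPM in cells with 2 UMIs and at 157 and 95.5 CPM in cells with 3. Cells with 2 UMIs thus already carried much of the companion signal, in DMSO more than in YM.

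**Figure D3:**
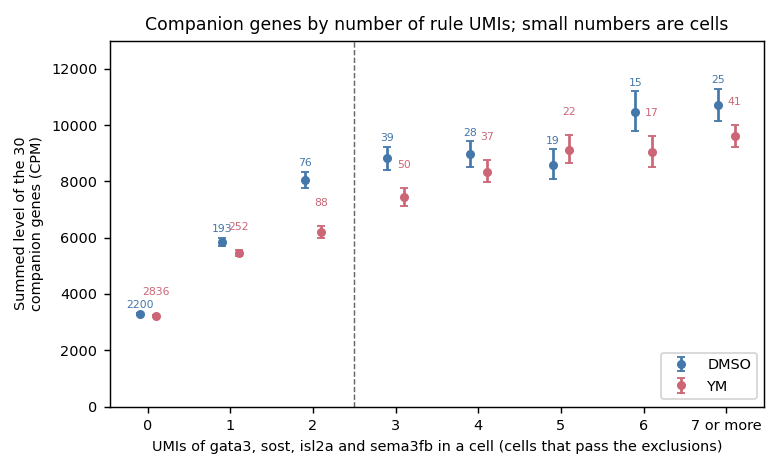
Summed level of 30 companion genes (CPM, y axis) in cells grouped by their UMIs of the 4 genes of the rule (x axis), with exact 95% Poisson intervals, the number of cells above each point and a dashed line at the minimum of the rule. Levels are 3281 (DMSO) and 3227 (YM) at 0 UMIs and 10705 and 9614 at 7 or more, not climbing at every step (DMSO is at 8593 at 5 UMIs and YM at 9056 at 6).

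Comparison cells were taken by markers of their own, without members and without cells that met the rules of several groups. Genes that go with the genes of the rule are therefore lowered in them by the choice of cells. Cells taken by markers of the region around the eye, called periocular frontonasal, shared some leading genes with members. *cyp26b1* was at 79.0 and 101 CPM there against 82.8 and 98.6 CPM in members, *thbs1b* at 163 and 158 CPM against 167 and 175, and *gata2a* at 62.3 and 57.6 CPM against 93.0 and 61.0. *matn4* was at 79.4 and 76.8 CPM in them, below the 203 and 241 CPM of members. *tbx18* was at 2.08 and 1.74 CPM in them, *foxf2a* at 9.56 and 2.32, and *fabp11a* at 3.74 and 4.64. By list sums, matrix genes were higher in them (10082 and 10480 CPM against 7721 and 8002 in members), as were hedgehog genes. Fgf genes (1097 and 1095 against 1050 and 1037 CPM) and semaphorin genes (645 and 600 against 654 and 635) were close. Chemokine genes were at 789 and 824 against 818 and 694 CPM. Forkhead genes (1417 and 1382 against 2193 and 2260 CPM) and BMP ligands (131 and 129 against 288 and 247) were lower. Cells with *hand2*, the ventral arch marker, shared *foxf2a* (74.2 and 83.6 CPM) and *gdf6a* (13.7 and 12.6 CPM) at lower levels, but held 0.36 and 0 CPM of *tbx18* and 0.36 and 0.33 CPM of *gata2a*. In cells with *lhx6* and *lhx8a*, of the dorsal first arch, *six2a* was at 68.5 and 29.8 CPM against 74.1 and 47.8 in members. *matn4* and *cnmd* also reached 767 and 599 CPM in the 13 epidermal cells of DMSO, and *cnmd* was at 0 in the 10 of YM. *tbx18* stayed at or under 2.08 CPM in each of the crest groups taken by markers, which held no members by choice.

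Some members met a second rule. The periocular frontonasal rule was met by 9 DMSO members (7.14%, 3.32 to 13.1) and 17 YM members (10.18%, 6.04 to 15.8), against 13.36% and 14.5% of kept cells. No member met the *lhx6* and *lhx8a* rule, a count that allows up to 2.89% of DMSO members and 2.18% of YM members by the exact interval. Of kept cells, 6.92% in DMSO and 7.54% in YM met it. The exclusions act on other arch markers, and their part in this count was not tested.

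Members differed among themselves by the gene of the rule that led. Because the rule needs 3 UMIs over 4 genes, cells rich in 1 of them need none of the others, which sets these genes against each other. For genes outside the rule, members led by *sost* were compared with those led by *gata3*. Of 1991 genes, 32 were at least 2-fold higher with *sost* in both libraries and 5 with *gata3*. *tbx18* was at 354 CPM in *sost*-led and 9.95 CPM in *gata3*-led DMSO members (log2 ratio 5.15, 3.24 to 8.23), and at 163 and 14.1 CPM in YM members (3.53, 2.22 to 5.21). *fabp11a* had ratios of 3.73 and 3.42, and *foxd1*, a forkhead gene of head mesenchyme, 3.32 and 3.07. *foxf2b*, *foxl1*, *foxd2*, *wfdc2*, *alcama*, *nuak1b*, *cpn1.1*, *si:ch73-86n18.1* and *tnn* were also higher with *sost*, by 1.51 to 3.27. Higher with *gata3* were *prrx1b* (−3.73 and −1.42), *mybbp1a*, *nhsl1a*, *apela* and *CU459186.2*. *prrx1b* was at 159 and 122 CPM in *gata3*-led members and at 12.01 and 45.3 CPM in *sost*-led members. The same split was seen per cell. *tbx18* was detected in 38.9% (25.9 to 53.1) of DMSO and 34.1% of YM members with a *sost* UMI, and in 4.17% (0.87 to 11.7) and 8.54% of those without.

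When members of both libraries were clustered on other genes, without the genes of the rule, the reporter genes and the cell cycle lists, 5 clusters were found. The genes of a cluster define it and are given as a description. Cluster 1 held 28 DMSO members (22.2%, 15.3 to 30.5) and 47 YM members (28.1%, 21.5 to 35.6), and 48 of the 96 *sost*-led members. Among its leading genes were *tbx18* (346 CPM against 23.0 in the other members), *fmoda* (511 against 35.3), *foxd1* (506 against 62.2), *plpp3*, *akap12b* (2311 against 316), *pcdh7b*, *col1a1b*, *fabp11a* and *tnn*. *fmoda* encodes fibromodulin, a proteoglycan of collagen-rich matrix, and *tnn* a tenascin. *sost* itself was at 927 CPM in this cluster.

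Clusters 2 to 5 differed in cell cycle genes, although the lists of these genes were left out of the clustering. Mitosis genes summed to 6625 CPM in cluster 4 (55 cells) and to 432 CPM in cluster 5 (69 cells), where replication genes were at 4278 CPM against 1670 in cluster 4. *unga* led cluster 2 (38 cells), and 26 of the 56 cells of cluster 3 were led by *gata3*. *bmp5* was at 38.8 and 8.30 CPM in cluster 1, from 5 and 2 UMIs, and between 115 and 285 CPM in the libraries of clusters 2 to 5. Frontonasal and periocular genes summed to 3093 CPM in cluster 1, and to between 304 and 965 CPM in clusters 2 to 5. All members were at 1068 CPM in DMSO and 1347 in YM, and the periocular frontonasal cells at 3106 and 2992 CPM. Cluster 1 was thus near the periocular frontonasal cells in this sum, whereas clusters 2 to 5 were not. None of these clusters was given a cell type name.

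**Figure D4:**
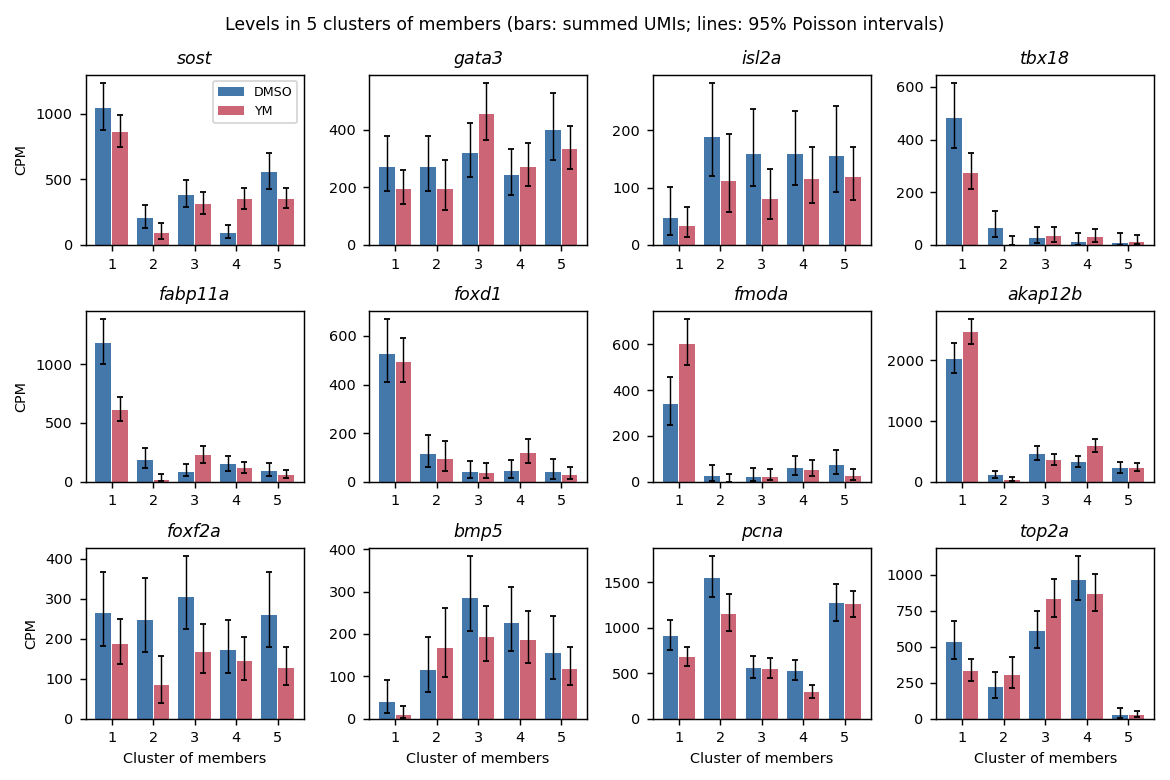
Levels of 12 genes (CPM, y axis, from 0) in 5 clusters of members (x axis) in DMSO (blue) and YM (red), with exact 95% Poisson intervals. *sost*, *tbx18*, *fabp11a*, *foxd1*, *fmoda* and *akap12b* stand highest in cluster 1, *bmp5* is lowest there, and *pcna* and *top2a* separate the others.

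At a finer resolution, cluster 1 came apart. One piece of 42 cells (18 DMSO, 24 YM) had *sost* at 1477 CPM, *tbx18* at 678, *fabp11a* at 1378, *foxd1* at 733 and *matn4* at 617 CPM. It held 0 UMIs of *lmx1bb*, and *fmoda* was at 22.0 CPM. The other piece of 33 cells had *fmoda* at 982 CPM, *lmx1bb* at 186, *akap12b* at 3131 and *tnn* at 1295 CPM. *tbx18* was at 26.5 CPM and *sost* at 398 CPM there. Frontonasal and periocular genes summed to 1995 CPM in the first piece and to 4149 CPM in the other. The *tbx18* transcripts of the population thus came mostly from the first piece, which had 123 of the 158 *tbx18* UMIs and a UMI in 34 of 42 cells. A further cluster of 9 cells (4 DMSO, 5 YM) had *cldn11a* at 615 CPM, *tfap2a* at 518, *alx4a* at 534 and *pax3a* at 194 CPM, with *sost* and *fabp11a* at 0.

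YM was then compared with DMSO within members, over 3032 genes with at least 50 UMIs in members. At a change of 1.5-fold, 112 genes (3.69%) were higher and 181 (5.97%) lower in YM members. The interval excluded 0 for 60 of the higher and 131 of the lower genes. The 131 include genes whose UMIs came from the DMSO member with epidermal transcripts, such as *icn* (715 of 715). They were not recounted without that cell. The median log2 ratio was −0.06. Scaling the libraries by TMM factors raised every log2 ratio by 0.11 and turned the split to 188 higher and 113 lower. Without the 2 doubtful cells the counts were 113 and 173 of 2983 genes. No difference below has a replicate check.

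Of the genes with at least 100 UMIs, *her9* and *her6* were among the 8 with the highest ratio. The study counts both as dorsal patterning genes. *her9* was at 45.0 CPM (30.6 to 63.9) in DMSO members and 143 CPM (121 to 169) in YM members, a log2 ratio of 1.67 (1.102 to 2.28), against 1.05 in the other kept cells. *her6* was at 182 and 366 CPM (1.01, 0.71 to 1.32; others 0.58). Both also stand in the Notch pathway list used here, which does not show that Notch drives them. Of 7 genes of that list, 3 were higher (*her9*, *her6* and the ligand gene *jag1b*, 1.29, 0.47 to 2.19, from 16 and 56 UMIs) and 0 were lower. The median was 0.38 in members and 0.47 in the other cells, so the list median was no higher in members than elsewhere.

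Of the other leading genes, *npb* and *col1a1b* had ratios near 0 in the rest of the kept cells. *ccne2*, *h1-10*, *hmga2* and *atp6v0e1* were also above 0 there, with intervals that excluded 0. *npb*, which encodes the neuropeptide B precursor, was at 43.6 CPM (29.4 to 62.2) in DMSO members and 117 CPM (96.6 to 140) in YM members, a log2 ratio of 1.42 (0.83 to 2.06) against 0.01 in the other cells. In cells with at least 5 UMIs of the rule's genes the ratio of *npb* was 0.31. *col1a1b*, a type I collagen chain, was at 116 and 229 CPM (0.98, 0.60 to 1.36), against −0.01 in the other cells. *ccne2* (cyclin E2, 1.16), *h1-10* (a linker histone, 1.03) and *hmga2* (0.97) had ratios of 0.38, 0.37 and 0.16 in the other cells. With a minimum of 2 UMIs of the rule's genes, *ccne2* was at 0.56, under 1.5-fold. *ccne2* was also a leading gene of cluster 5 (199 CPM against 41.2 in the other members). That cluster held 19.8% of DMSO and 26.3% of YM members, and the part of these shares was not tested. *atp6v0e1*, a proton pump subunit, was at 314 and 615 CPM (0.97), close to the 0.91 of the other cells. These differences between members and others were not tested.

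Of 22 matrix genes, 4 were higher in YM, namely *col1a1b*, *tnn* (219 and 408 CPM, 0.89), *fmoda* (0.75) and *fn1a* (0.70), and 1 was lower, *col1a1a*. *col1a1a* had a ratio of −0.74 (−0.89 to −0.60), but of 0.39 (0.21 to 0.58) without the 2 doubtful cells. The list median was 0.23 against 0.07 in the other cells, and 0.30 without these cells. With a minimum of 2 UMIs of the rule's genes, *col1a1b* was at 0.38 and *tnn* at 0.38, under 1.5-fold, and *tnn* was at 0.46 with a minimum of 5 and at 0.51 after thinning. *col1a1b*, *tnn* and *fmoda* were leading genes of cluster 1, whose share was 22.2% in DMSO and 28.1% in YM. Within cluster 1 *tnn* was at 666 CPM in DMSO and 1150 in YM, *col1a1b* at 349 and 656, and *fmoda* at 341 and 602. In the finer piece with *fmoda* there were 10 DMSO and 23 YM cells. The part of these cell numbers in the differences was not tested.

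Of 8 immediate early genes, 3 were higher in YM members (*atf3*, 2.14, 1.17 to 3.27, from 10 and 63 UMIs, *fosab*, 0.87, and *btg2*, 0.66) and 0 were lower, with a median of 0.38 against 0.27 in the other cells. With a minimum of 2 UMIs of the rule's genes, *fosab* was at 0.49, under 1.5-fold, and *atf3* at 1.16. Of 14 replication genes, *cdc6* (1.13) and *slbp* (0.78) were higher and 0 lower, with a median of −0.10. With a minimum of 2 UMIs of the rule's genes *slbp* was at 0.49, under 1.5-fold. Both *cdc6* and *slbp* were leading genes of cluster 5, which held 19.8% of DMSO and 26.3% of YM members. The part of these shares was not tested. Of 14 mitosis genes, 0 were higher or lower, with a median of −0.25 against −0.22.

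By their median, BMP target genes were lower in YM members, but not every gene was. Of 11, 3 were lower in YM (*id2a*, *msx1b* and *gata2a*) and 0 were higher, with a median of −0.38 against −0.08 in the other cells. *id2a*, an inhibitor of basic helix-loop-helix factors, was at 160 CPM (131 to 193) in DMSO members and 81.4 CPM (64.5 to 101) in YM members, a log2 ratio of −0.97 (−1.41 to −0.55), against 0.11 in the other cells. *id1* had a ratio of −0.38 (−0.47 to −0.30) against −0.15. *gata2a* was at 93.0 and 61.0 CPM (−0.61, −1.14 to −0.08) against 0.02. For *gata2a* the ratio was −0.30 with a minimum of 5 UMIs of the rule's genes and −0.42 after thinning, under 1.5-fold. *msx1b* turned from −0.65 to 0.83 without the 2 doubtful cells. The list median was −0.29 without these cells and −0.05 among genes with at least 200 UMIs or in cells with at least 5 UMIs of the rule's genes, so it depended on few genes. The median of −0.38 was the value of *id1* itself. *id3* went the other way, with the highest ratio of the list at 0.27. The inhibitory Smad genes had ratios of 0.04 (*smad6a*, −0.66 to 0.76) and 0.08 (*smad7*, −0.47 to 0.64).

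Among the companion genes 0 of 30 were higher and 3 lower in YM, with a median of −0.04 against −0.01 in the other cells, and of 0.08 under TMM scaling. The 3 were *foxf2a* (247 and 147 CPM, −0.74, −1.07 to −0.42, against −0.19 in the other cells), *gata2a* and *six2a* (74.1 and 47.8 CPM, −0.63). Under TMM scaling, *gata2a* and *six2a* were under 1.5-fold. *tbx18* had a ratio of −0.44, with an interval that held 0. Also lower were the crest gene *snai1a* (154 and 89.5 CPM, −0.78, −1.21 to −0.36, against 0.08), the atypical chemokine receptor gene *ackr3b* (−1.08) and the chemokine gene *ccl25b* (−1.15). Of 36 proteasome genes, 6 were lower and 0 higher, with a median of −0.29 close to the −0.25 of the other cells. None of the 8 hedgehog genes with enough UMIs passed 1.5-fold, with a median of −0.03. *gna11b*, which encodes a target of YM, was at 20.3 CPM in both, from 14 and 20 UMIs, and *gnaq* had 0 UMIs.

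The 8 genes with the lowest ratios came from the DMSO cell with epidermal transcripts, among them *icn* (715 UMIs in DMSO members, all from that cell, and 0 in YM members), *and1*, *apoc1*, *apoeb*, *tmsb1*, *cfl1l* and *s100a10b*. Without the 2 doubtful cells, the 8 lowest were *si:ch211-114n24.6* (−1.12), *mrps21* (−1.11), *id2a* (−0.99), *ruvbl1* (−0.96), *vangl2* (−0.91), *puf60a* (−0.88), *lsm5* (−0.88) and *akirin2* (−0.83). *vangl2* encodes a planar cell polarity protein and *mrps21* a mitochondrial ribosomal protein. *puf60a* and *lsm5* encode proteins that act in RNA splicing.

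**Figure D5:**
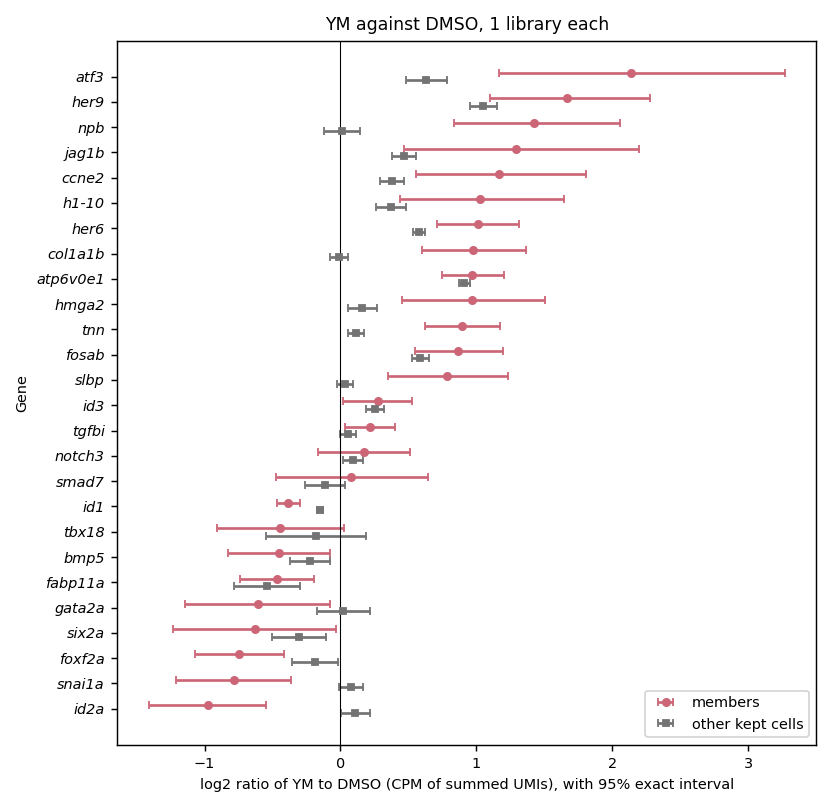
Log2 ratio of YM to DMSO (x axis, CPM of summed UMIs, 1 library each) of 26 genes (y axis) in members (red circles) and in the other kept cells (grey squares), with exact 95% intervals. *her9*, *her6* and *atp6v0e1* are right of 0 in both, *npb* and *col1a1b* in members with 0.01 and −0.01 in the others, and *id2a* lies left of 0 in members at −0.97 and right of it in the others at 0.11.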

How the data were processed

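Per the labels and methods, 10x Genomics 3′ libraries of sorted cells were sequenced, and the authors aligned and counted reads with Cell Ranger 5.0.1 on GRCz11. The matrices used here are the deposited raw UMI counts for all 6794880 possible barcodes of each library, before the filtering that the authors did in Seurat 4.3.0. The limits on UMIs and genes per cell can remove small or large cells. Free RNA and doublets remained in the counts.

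UMIs were summed per library over members and over other cells and divided by the summed total to give CPM. Shares had exact Clopper-Pearson intervals, CPM exact Poisson intervals and log2 ratios exact conditional binomial intervals, all at 95%. A sum of 0 was bounded with 3 counts. UMIs are molecules from 1 pool of embryos per condition, so these intervals and bounds cover counting error only. Genes were compared with other cells from 100 UMIs over all kept cells, and between YM and DMSO from 50 UMIs over members. Named genes were the label markers, the 15 highest and 10 lowest against other cells by the smaller ratio of the libraries, the 8 highest and 8 lowest in YM from 100 UMIs, and members of 46 gene lists with high levels or ratios. Members and lists were chosen with earlier results of these data known. A few features with a numbered suffix (*cpn1.1*, *ebf3a.1*) are the second of their symbol, and reads of such copies and of paralogs may be shared.

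Members were clustered with scanpy 1.11.5 (log counts, 1000 variable genes, 15 components, Leiden resolution 0.5). No cells were removed as doublets. Leaving out the highest Scrublet scores (101 DMSO and 153 YM cells, 2 and 1 of them members) was an alternative, as were other limits on cells, on UMIs per gene and on the rule, thinning to 3500 UMIs and TMM factors (edgeR 4.0.16). Counting was checked on simulated data. Python 3.11.15 and scipy 1.17.1 were used. Some genes of the lists are not reported here.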

Additional observations from a re-analysis of the deposited data

Results flagged for a closer look

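Genes were picked here where the log2 ratio of YM to DMSO had opposite signs in members and in the other kept cells, with both intervals excluding 0. The difference between the 2 kinds of cells was not tested in any of them. *col1a1a* had a ratio of −0.74 (−0.89 to −0.60) in members and 0.18 (0.14 to 0.23) in the others, and 0.39 in members without the 2 doubtful cells. *id2a* was at −0.97 (−1.41 to −0.55) in members and 0.11 (0.0040 to 0.21) in the others, and −0.99 without these cells. *adam8a*, a metalloprotease gene, was at 0.54 (0.15 to 0.94) against −0.27 (−0.44 to −0.11), and 0.51 without them. *cxcl12b* was at −0.36 (−0.71 to −0.02) against 0.26 (0.17 to 0.35), and −0.42 without them. TMM scaling raised every ratio in members by 0.11, with which the interval of *cxcl12b* in members holds 0.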

How the results depend on the processing

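No paired analysis was possible because each condition had 1 library. The count of companion genes higher in members stayed between 26 and 28 over 16 alternatives. The share of members in kept cells was 5.68% (DMSO) and 5.83% (YM) with a minimum of 2 UMIs of the rule's genes, 1.66% and 1.83% with 5, and 2.49% and 2.32% after thinning to 3500 UMIs. At Leiden resolution 0.8 cluster 1 came apart, so its share there is not the share of the same cells. The piece of 42 cells with *tbx18* took 14.3% of DMSO and 14.4% of YM members. The piece of 33 cells with *fmoda* took 7.94% and 13.8%. Counts of genes 1.5-fold higher in YM members were 188 with TMM factors, 431 from 20 UMIs per gene, 9 from 200, 3171 from 1, 50 with a minimum of 5 UMIs of the rule's genes and 70 after thinning. Counts of lower genes were 113 with TMM factors, 656 from 20 UMIs, 12 from 200 and 3173 from 1, and the UMI minimum sets how many genes are tested. List medians of YM against DMSO moved as follows. BMP targets were at −0.0542 (minimum of 5), −0.0548 (200 UMIs per gene), −0.27 (TMM), −0.29 (equal weight per cell) and −0.50 (thinned). Mitosis genes were at −0.14 (minimum of 2), −0.37 (5), −0.14 (thinned) and −0.13 (TMM). Proteasome genes were at −0.41 (thinned) and −0.17 (TMM). Companion genes were at −0.17 (minimum of 2), 0.12 (thinned) and 0.0780 (TMM). Matrix genes were at 0.0558 (minimum of 2), 0.14 (5), 0.30 (without the 2 doubtful cells), 0.34 (TMM), 0.16 (equal weight) and 0.14 (200 UMIs). Notch genes were at 0.23 (minimum of 2) and 0.65 (5), and immediate early genes at 0.76 from 1 UMI per gene. *col1a1a* turned to 0.33 (minimum of 5), 0.37 (thinned) and 0.39 (without the 2 cells). Other causes of these moves were not tested. The naming of YM genes without the 2 cells was added after the data were seen. The minimum of 50 UMIs per gene was a choice, and 1 library per condition means that batch and treatment cannot be told apart.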
